A study of Mus musculus with 95 samples.

Results

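The genes described here are those of mitochondrial complexes II to V and of cytochrome c, followed through nerve and kidney tissue of diabetic mice given pioglitazone. They were chosen by symbol alone: Sdha, Sdhb, Sdhc and Sdhd, every symbol that opens with Uqcr, with Cox4 to Cox8 or with Atp5, and Cycs and Cyc1. This rule takes 49 of the 25407 genes listed, namely 4 of complex II, 8 of complex III, Cycs, 18 of complex IV and 17 symbols of the Atp5 series of complex V. The remaining member, Cox4nb, matches by its letters alone and does not encode a subunit of complex IV. The groups follow symbols, and a place in a group does not mean that each gene encodes a subunit of that complex.

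Gene expression was measured by RNA-Seq as FPKM (fragment counts scaled by transcript length and library size) in 95 libraries. The tissues were the sciatic nerve (SCN), the ganglia of the dorsal roots (DRG), glomeruli isolated from kidney, and kidney cortex. The mice were males of the C57BLKS background (BKS.Cg-m +/+ Leprdb/J), either db/+ heterozygotes, which served as controls, or db/db mice, which lack the long leptin receptor, become obese and develop type 2 diabetes. They were taken at 16 weeks of age. The db/+ PIO and db/db PIO groups had received 15 mg/kg pioglitazone, an agonist of the nuclear receptor PPARG, in their chow for 11 weeks. There were 6 libraries in 15 of the 16 groups and 5 in db/db mice for DRG. The db/+ controls carry 1 copy of the Lepr mutation, and the lack of leptin signalling in db/db mice is shared by every cell of the animal, so that diabetes, obesity and lost leptin signalling cannot be told apart. The labels do not say how the libraries of different tissues relate to single animals, and p-values measure the spread between these libraries.

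As background, electrons from NADH and succinate enter the inner mitochondrial membrane at complexes I and II, pass through ubiquinone to complex III, and are carried by cytochrome c to complex IV, which reduces oxygen to water. Complexes III and IV pump protons, and complex V, the ATP synthase, uses the returning protons to make ATP. Complex II (Sdh genes) is also an enzyme of the citric acid cycle. Several small subunits of complex IV exist as a ubiquitous form and a heart and skeletal muscle form encoded by separate genes (Cox6a1 and Cox6a2, Cox7a2 and Cox7a1, Cox8a and Cox8b). Brown fat uses the muscle forms Cox7a1 and Cox8b, and the proximal tubule of the kidney cortex is a cell type rich in mitochondria.

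Cox8b, Cox8a and Cox7a1 are followed closely below, and the DNA just before their starts is shown because the members of a pair are separate genes with promoters of their own. Each line gives the 250 bases before the start in RefSeq on GRCm38.p6, 5′ to 3′ on the strand of the gene, with motif matches in capitals. Cox8b lies at chr7:140900447-140900696 on the minus strand, Cox8a at chr19:7217617-7217866 on the minus strand and Cox7a1 at chr7:30183921-30184170 on the plus strand.
Cox8b: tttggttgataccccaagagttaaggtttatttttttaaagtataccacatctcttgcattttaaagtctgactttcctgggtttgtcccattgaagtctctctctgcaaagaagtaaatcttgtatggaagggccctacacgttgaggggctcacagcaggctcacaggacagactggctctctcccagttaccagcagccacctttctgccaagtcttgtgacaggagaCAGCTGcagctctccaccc
Cox8a: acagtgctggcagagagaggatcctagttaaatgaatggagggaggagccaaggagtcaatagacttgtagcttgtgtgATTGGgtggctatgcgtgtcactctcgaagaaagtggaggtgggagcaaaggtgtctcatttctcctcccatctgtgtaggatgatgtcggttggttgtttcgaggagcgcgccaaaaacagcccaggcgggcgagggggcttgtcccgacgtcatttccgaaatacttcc
Cox7a1: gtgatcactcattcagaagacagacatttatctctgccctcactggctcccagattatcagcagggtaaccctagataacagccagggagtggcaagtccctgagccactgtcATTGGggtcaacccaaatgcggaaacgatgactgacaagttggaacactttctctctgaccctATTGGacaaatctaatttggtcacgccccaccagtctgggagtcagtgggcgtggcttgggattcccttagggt
The letters searched on both strands were CCAAT (the box bound by NF-Y), GGGCGG (the box bound by Sp1), TATAAA (the TATA box), CAGCTG (an E-box letter pattern bound by muscle regulators), the palindrome of NRF1, a regulator of respiratory genes, TCAAGGTCA (the pattern of estrogen-related receptors) and the direct repeat bound by PPAR and RXR pairs. Of the 33 members with an entry, 19 held CCAAT or its reverse complement ATTGG, 57.6%, against 33.85% of all 32851 promoters of this length. The NRF1 pattern was present in Atp5g2, Atp5k and Cox6a1, 9.09% of the members against 0.782% of all promoters. CAGCTG was present in Cox8b and Atp5b, 6.06% of the members against 13% of all promoters. The pattern of estrogen-related receptors was found in Atp5g3 alone of the members, 3.03% against 0.387% of all promoters. GGGCGG was held by 10 members, 30.3% against 32.7% of all promoters, and TATAAA by 2, 6.06% against 12.4%. The PPAR direct repeat was in no member's 250 bases and in 0.033% of all promoters. Such matches describe letters in this window and are no binding sites.

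Many of these genes had no usable value in most libraries. A 0 was read as missing, because it was listed for genes that every cell uses, and only 1208 of the 4655 entries of the 49 members were above 0, 26%. Complex IV had values in 32.9% of its entries, complex III in 34.3%, complex II in 19.7% and complex V in 15.4%. Cycs, the electron carrier, had a value in 50 libraries. Sdhb, the iron-sulfur subunit of complex II, and Atp5g3, Atp5j and Atp5sl were listed at 0 in all 95 libraries. Cox4i1, the usual form of the largest nuclear-encoded complex IV subunit, had a value in 4 libraries. Uqcrfs1 (the Rieske iron-sulfur protein of complex III) and Cox4i2 (a form of Cox4 known from lung) had values in 87 libraries each and were the members measured most often.

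**Figure D1:**
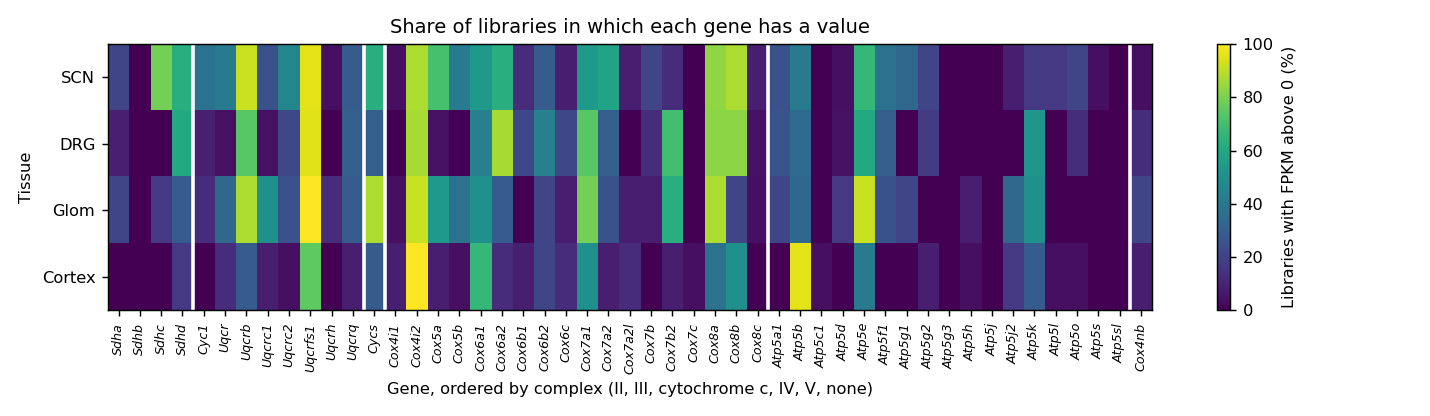
Share of the libraries of each tissue (rows) in which each of the 49 members (columns, ordered by complex) had an FPKM above 0, in percent. Uqcrfs1 and Cox4i2 are bright in all 4 tissues, while most complex V columns are dark and Atp5b is bright in cortex, with values in 23 of 24 libraries there.

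The share of missing entries differed between levels and tissues. Among members whose usual FPKM in SCN was 100 or more, 33.2% of entries were above 0, against 48.4% for members between 10 and 100 and 35% for members under 10. In cortex the share for members at 100 or more was 20.8%, against 32.6% for all genes of that level there. A library had values for a median of 7 members in cortex, 12 in DRG, 13.5 in glomeruli and 16 in SCN. After the filter on low values (5 or more libraries of a tissue at an FPKM of 1 or above), 11 members remained in cortex, 20 in DRG, 26 in glomeruli and 29 in SCN. A test needed 3 or more values on each side, so that 21 members were tested in at least 1 comparison and 28 in none. Members without a test, Sdha, Cyc1, Uqcrc2, Uqcrh and Atp5a1 among them, are described by levels only.

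Levels of most members that could be compared were highest in kidney cortex. Atp5b, the catalytic beta subunit of ATP synthase, had a median of 2284.87 FPKM in cortex, against 758 in DRG, 489 in glomeruli and 441 in SCN. Uqcrfs1 had a median of 347 FPKM in cortex, against 78.5 in DRG, 54.6 in glomeruli and 47.2 in SCN. The 23 cortex libraries with an Atp5b value lay between 1883.2 and 2738.29 FPKM, above every library of the other tissues, where the highest was 778. Of 12 members with at least 5 values in both glomeruli and cortex, 9 had the higher median in cortex, with a median ratio of 2.35, and in 8 every cortex value was above every glomerular value. Levels in DRG and SCN were closer: of 18 members, 11 had the higher median in DRG, with a median ratio of 1.29. Libraries of different tissues were compared without a test, and a lower FPKM in bulk tissue does not tell fewer cells of a type from less RNA per cell.

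Other members of each complex are given by their medians in FPKM where values exist. In SCN, Sdhc (a membrane anchor of complex II) had 117 and Sdhd (the other anchor) had 19.9. Among complex III genes in SCN, Uqcrb (the subunit 7 homologue) had 233, Uqcrc1 and Uqcrc2 (the core proteins) had 82 and 84.8, and Cyc1 (cytochrome c1) had 73.4. Cycs had 20.5 in SCN, 31.7 in glomeruli, 63.9 in DRG and 156 in cortex. In complex V, Atp5e (the epsilon subunit) had 1031.44 in cortex, 559 in glomeruli, 449.66 in SCN and 376 in DRG. FPKM is scaled by transcript length, so that these levels can be set side by side, but the short transcripts of these genes make single values imprecise.

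The labelled tissues carried markers of their own cells in part. Here and below a list was summed over the markers with a value. A missing marker added nothing, so that a low sum can stand for missing entries. In DRG, 5 of 6 sensory neuron markers were at 0 in all libraries except those of db/db PIO, where Calca had a value and 4 were at 0, and the list rested on Nefl. In glomeruli the podocyte list summed to between 2475.68 and 5513.9 FPKM outside the db/db group and to between 0 and 4433.24 in db/db, with Nphs1 and Wt1 at 0 in every library. In cortex the list of 7 proximal tubule markers summed to between 0 and 3384.13 FPKM, and Lrp2, Slc5a2, Slc5a12 and Slc22a6 were at 0 in all libraries. Libraries that stood apart were replicate 6 of cortex db/db, with a sum of all FPKM of 601310.2 against a cortex median of 224008, and replicate 2 of glomerular db/+, described with its results.

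Of the muscle-type isoforms of complex IV, Cox8b differed between tissues clearly more than its ubiquitous partner did. Cox8b (mm9 chr7:148084842-148086345, minus strand, protein-coding) was highest in SCN at a median of 17 FPKM, followed by DRG at 1.7, glomeruli at 0.28 and cortex at 0.27. Its ubiquitous partner Cox8a (chr19:7289648-7292106, minus strand) had medians of 687 in cortex, 338 in glomeruli, 334.5 in DRG and 307 in SCN. The 3 lower tissues of Cox8b did not separate fully from each other, since the DRG libraries began at 0.67 and the highest cortex library had 0.87. Cox7a1 (chr7:30969190-30971047, plus strand) followed another order, with a median of 62.5 in cortex, 32.1 in SCN, 15.5 in DRG and 13.8 in glomeruli. Cox7a2 (chr9:79603048-79607660, minus strand), its partner, had medians of 175, 279 and 200.21 in SCN, DRG and glomeruli. It had values in only 2 cortex libraries, 555.5 and 2101.54, with a median of 1328.52, so that Cox7a1 did not differ more than Cox7a2. Cox6a2 (chr7:135348950-135349880, minus strand) was low in every tissue, with medians of 1.84 in cortex, 0.52 in SCN, 0.46 in DRG and 0.29 in glomeruli, against 1318.34, 840, 756 and 607 in that order for Cox6a1 (chr5:115795651-115798990, minus strand). The cortex median of Cox6a2 rested on 3 libraries.

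**Figure D2:**
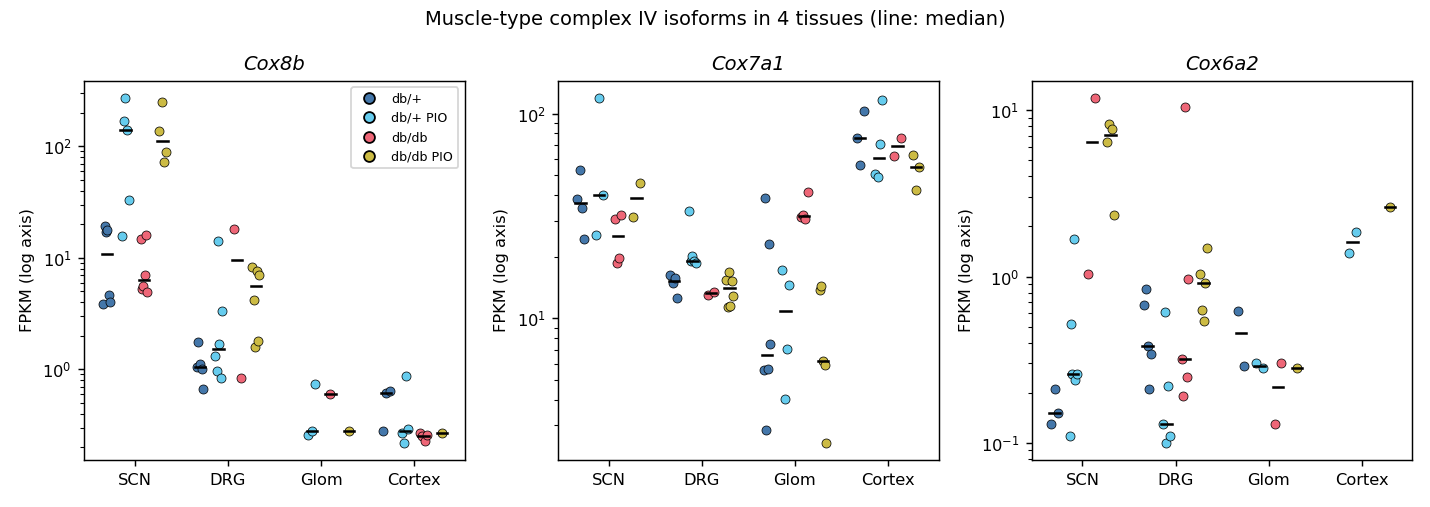
FPKM of Cox8b, Cox7a1 and Cox6a2 on log axes in the 4 tissues, 1 point per library with a value, coloured by group, with a line at the median. Cox8b is highest in the pioglitazone groups of SCN, with medians of 139 in db/+ PIO and 113 in db/db PIO, and Cox7a1 of glomeruli is highest in db/db, with a median of 31.6.

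Within single libraries the ratio of the 2 forms was followed too. Cox8b made up 1.6% to 6.62% of the Cox8a level in SCN db/+ libraries and 1.84% to 5.17% in db/db. In db/db PIO it was 21.9% to 60.2% of Cox8a (4 libraries), and in db/+ PIO 6.82% to 73% (4 libraries). The lowest pioglitazone-treated library was therefore just above the highest untreated one. In DRG the ratio was 0.235% to 0.555% in db/+ and 0.476% to 2.63% in db/db PIO, and overlapped between these groups. It was 0.172% to 1.003% in db/+ PIO, and 4.14% in the only db/db library with both values. Cox7a1 was 17.8% to 28.9% of Cox7a2 in SCN db/+ (4 libraries) and 12.6% to 19.2% in db/db (3 libraries), again with overlap. Of the other pairs, Cox4i2 was at most 1.56% of Cox4i1 in the 4 libraries with both values, and Cox6b2 of Cox6b1, Cox7b2 of Cox7b and Cox8c of Cox8a had both values in 2, 3 and 4 libraries.

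Pioglitazone in db/db mice went with higher levels of 5 respiratory genes in SCN. Of 11 members tested, Cox8b, Cycs, Uqcrfs1, Uqcrb and Cox5a were higher in db/db PIO than in db/db at an adjusted p under 0.05 (limma, Benjamini-Hochberg over all genes tested), and none was lower. In this comparison 10.1% of all genes tested passed. The median log2 fold change of the 11 members was 0.33, against 0.02 for all genes. All fold changes here and below are on the log2(FPKM + 1) scale.

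Cox8b showed the largest of these differences. Its FPKM in SCN db/db was 4.92 at the lowest, 6.31 at the median and 16.2 at the highest of 6 libraries. In db/db PIO it was 137, 248, 72.6 and 88.6 in the 4 libraries with a value, and replicates 1 and 6 were listed at 0. Every db/db PIO value was above every db/db value. The log2 fold change was 3.77 ± 0.66 (SE; adjusted p = 0.00167), and it kept its call without each single library in turn, with 3.43 without replicate 3 of db/db PIO.

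Cycs (mm9 chr6:50512562-50516537, minus strand) had 20.2, 30.2, 19.9 and 23.1 FPKM in 4 SCN db/db libraries and 73.9, 55.9 and 48.2 in 3 db/db PIO libraries. These groups did not overlap, and the log2 fold change was 1.31 ± 0.23 (adjusted p = 0.00359). Uqcrfs1 (chr13:30632177-30637231, minus strand) had 47.2, 44.9, 44.1, 50.03 and 38.02 FPKM in db/db, and 59.7 at the lowest, 73.3 at the median and 120.01 at the highest of 6 db/db PIO libraries. All treated libraries were above all untreated ones, and the log2 fold change was 0.79 ± 0.17 (adjusted p = 0.00608).

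Uqcrb (chr13:67001553-67006314, minus strand) ranged from 191 to 261 FPKM in 6 db/db libraries, with a median of 212, and had 431, 344, 311 and 304 in db/db PIO. The groups were again apart, with a log2 fold change of 0.67 ± 0.18 (adjusted p = 0.0181). Cox5a (chr9:57369039-57380231, plus strand), a nuclear-encoded subunit of the complex IV core surface, had 86.55, 83.1, 103 and 81.1 FPKM in db/db and 152, 166, 125, 115 and 120 in db/db PIO. Its lowest treated value lay above its highest untreated one, and the log2 fold change was 0.60 ± 0.14 (adjusted p = 0.0134). Cox8a had a log2 fold change of 0.27 ± 0.13 and Sdhc of 0.21 ± 0.10, at adjusted p = 0.188 and 0.192 (limma), and did not pass. Without replicate 3 of db/db PIO, the highest library for Cox8b, Cycs and Uqcrb, Uqcrb had 0.56 (adjusted p = 0.0737), Cycs had too few values for a test, and 3 of 9 members tested were called. The share of all genes called in that fit is not given, so the lower count is not read as a result about the members.

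**Figure D3:**
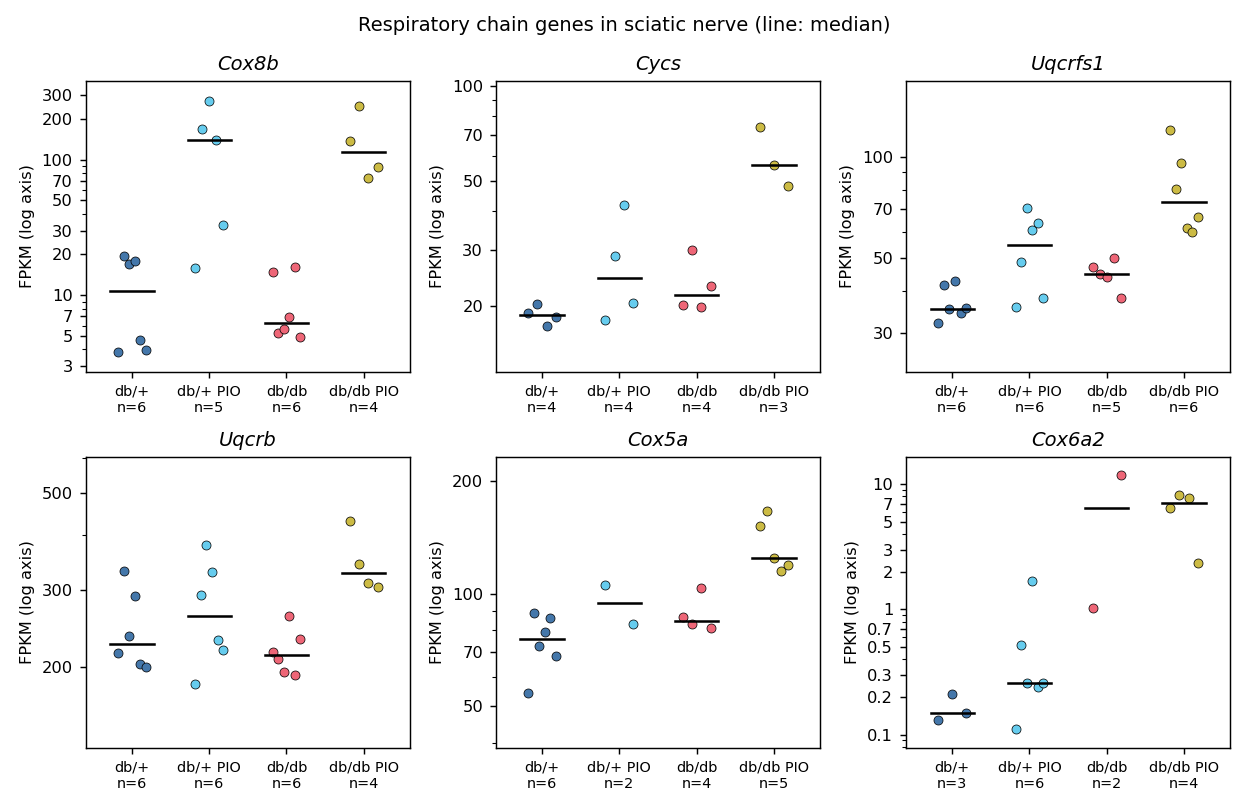
FPKM of 6 members in SCN on log axes, 1 point per library with a value and a line at the median, in the 4 groups (n under each group counts libraries with a value). For Cox8b, Cycs, Uqcrfs1, Uqcrb and Cox5a every db/db PIO point lies above every db/db point.

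Some markers of fat moved with these values in the same libraries. Fabp4, a fatty acid carrier of adipocytes, was between 2427.73 and 8591.48 FPKM in SCN db/db and between 7230.4 and 16830.2 in db/db PIO (log2 fold change 1.44, adjusted p = 0.00397), but the other 6 of 7 adipocyte markers, Adipoq and Plin1 included, were at 0 in all libraries of both groups. Cidea, a lipid droplet gene of brown fat, was between 0.15 and 0.91 in db/db and 4.89, 6.18, 14.9 and 29.5 in the same 4 db/db PIO libraries in which Cox8b had a value. The brown adipocyte list of 5 genes summed to 3.87 to 32.4 in db/db, against 10.2 to 109 in db/db PIO, with Elovl3 at 0 throughout db/db PIO and Ucp1 at 82 in the single db/db PIO library with a value. Of 3 skeletal muscle markers tested in this comparison, none passed. Ckm, the muscle creatine kinase, was at 143 and 47.3 FPKM in replicates 3 and 5 of db/db PIO and at most 29.8 in db/db. It was at 2.5 and 2.17 in replicates 2 and 4 of db/db PIO, where Cox8b also had values. The part of fat and muscle markers in the differences was not tested.

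In non-diabetic SCN, pioglitazone went with higher Cox8b values that fell just short of the threshold. Cox8b had 3.82, 10.8 and 19.4 FPKM at the lowest, median and highest of 6 db/+ libraries, and 15.8, 168, 270.13, 139 and 33.2 in db/+ PIO. Replicate 1 of db/+ PIO, at 15.8, lay inside the range of db/+. The log2 fold change was 3.05 ± 0.62 with an adjusted p = 0.0519 (limma), and 3.62 without that library (adjusted p = 0.00829). It also passed without replicate 6 of db/+, of db/+ PIO or of db/db PIO (adjusted p = 0.0488, 0.0458 and 0.0412). None of the 13 members tested passed, 4 had an unadjusted p under 0.05, and 0.0778% of all genes passed. Cidea was at 0.16 to 1.82 FPKM in db/+ and 0.69 to 23.7 in db/+ PIO, and Fabp4 had values of 1542.69 and 2873.66 in 2 db/+ libraries and 5766.03 to 9665.29 in 4 db/+ PIO libraries. Their part in the Cox8b values was not tested.

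Of 14 members tested in SCN between db/+ and db/db, 1 passed, against 14.9% of all genes. This count was 7 with quantile normalization, where 2301 of all 4233 genes tested were called, and the gene called here was not among the 7. It was 0 under 6 other settings. The member called was Cox6a1, with 499.65, 693 and 649 FPKM in 3 db/+ libraries and 817, 840.02, 851 and 783 in 4 db/db libraries. The groups did not overlap, and the log2 fold change was 0.44 ± 0.12 (adjusted p = 0.0313), but the call was lost without replicate 1, 4 or 5 of db/db (adjusted p = 0.0612, 0.0593 and 0.0602), and without replicate 2, 5 or 6 of db/+ too few values were left for its test. Cox8b had a log2 fold change of −0.14 ± 0.59 with diabetes, and Cox7a1 of −0.55 ± 0.39. Both intervals held 0, from −1.37 to 1.09 for Cox8b and from −1.40 to 0.31 for Cox7a1.

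Between the pioglitazone groups of SCN, 4 of 10 members tested were higher in db/db PIO than in db/+ PIO, with 33.8% of all genes called. This comparison shares its db/db PIO libraries with the one above. They were Cycs (log2 fold change 1.14 ± 0.23, adjusted p = 0.00181), Uqcrfs1 (0.60 ± 0.17, adjusted p = 0.00853), Sdhd (0.60 ± 0.17, adjusted p = 0.0133) and Cox6a2 (2.22 ± 0.42, adjusted p = 0.00118, all limma). Cox6a2 passed the filter on low values only through db/db PIO, as 3 libraries outside that group reached an FPKM of 1, so that its call is no independent support. Macrophage markers C1qa and Lyz2 were higher by 1.34 and 2.13 (2 of 2 tested), as was Fabp3 of the brown adipocyte list by 2.30 (1 of 2 tested). Macrophage markers summed to 51.65 to 177 FPKM in db/+ PIO and 0 to 726 in db/db PIO, with Cd68, Emr1 and C1qb at 0 throughout db/db PIO, and brown adipocyte markers to 0.05 to 37.3 and 10.2 to 109, with Elovl3 at 0 throughout db/db PIO. Their part in these values was not tested. Sdhd (mm9 chr9:50404443-50411954, minus strand) had 21.3, 22.1, 29.8, 23.6 and 14.2 FPKM in db/+ PIO and 35.2, 34.4 and 30.5 in db/db PIO, without overlap. Without replicate 3, 5 or 6 of db/db PIO, 2 members were called, since Cycs and Sdhd then had too few values.

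Cox6a2, the muscle form, had 0.11 at the lowest, 0.26 at the median and 1.68 at the highest of 6 SCN db/+ PIO libraries, and 6.45, 8.26, 7.75 and 2.35 in db/db PIO. The groups were apart. Ckm, the muscle creatine kinase, was also high in 3 of these db/db PIO libraries, at 19.9, 143 and 47.3 FPKM in replicates 1, 3 and 5, against at most 6.17 in db/+ PIO. Its log2 fold change was 2.32 (adjusted p = 0.0315), and it was the 1 of 3 muscle markers tested to pass. Acta1, the skeletal actin, was at 60.2 in replicate 1 and at 0 in replicates 3 and 5. In replicate 3 of db/db, Ckm was at 29.8 with Cox6a2 at 1.03. The list of 11 muscle markers summed to 5.7 to 28.2 in db/+ PIO and 3.9 to 220.42 in db/db PIO, with Tnnt3, Tnni2 and Myl1 at 0 throughout db/db PIO. The SCN db/db library with the highest Cox6a2, replicate 5 at 11.8 FPKM, had 74.5 FPKM of Acta1. In DRG the highest Cox6a2 value, 10.5 in replicate 3 of db/db against 0.19 to 0.96 in the other libraries of that group, came with 109 FPKM of Acta1 in the same library. The part of muscle RNA in these values was not tested.

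In glomeruli, 4 of 11 members tested between db/+ and db/db were higher and none lower (adjusted p under 0.05), against 25.4% of all genes. The 4 are of complexes III, IV and V. The count was 2 with the 2 groups fitted alone and 1 of 4 tested with a minimum of 5 values. It is not read as a result about the complexes. The median log2 fold change of the 11 was 0.27, against 0.04 for all genes. Of the 11, 10 had a positive log2 fold change.

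Uqcrc1 (mm9 chr9:108838661-108851685, plus strand) had 90.2, 82.9 and 81.4 FPKM in glomerular db/+ and 132, 110.01 and 103 in db/db. The log2 fold change was 0.43 ± 0.09 (adjusted p = 0.00724), with no overlap. Atp5b (chr10:127520329-127527447, plus strand) had 485, 449.79, 492.6 and 454 in db/+ and 776, 778 and 564 in db/db, also without overlap (log2 fold change 0.57 ± 0.13, adjusted p = 0.0152). These 2 members kept their calls without each single library in turn in which they could be tested.

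Cox7a1 had 2.86 at the lowest, 6.58 at the median and 38.8 at the highest of 6 db/+ libraries, and 31.2, 31.9, 30.7 and 41.4 FPKM in db/db. Replicate 2 of db/+, at 38.8, lay inside the db/db range, and the other 5 lay below it. The log2 fold change was 1.71 ± 0.57 (adjusted p = 0.0336). Uqcrfs1 had 44.6, 49.2 and 117 FPKM at the lowest, median and highest of the db/+ libraries, and 66.2, 78.3 and 104 in db/db. The 117 was again replicate 2 of db/+, and the other db/+ libraries, up to 55, were below all of db/db (log2 fold change 0.51 ± 0.17, adjusted p = 0.0341).

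Replicate 2 of glomerular db/+ was the highest of its group for Cox8a (524 FPKM against 280 to 321), Cycs (64 against 25.4 to 34.7) and Cox5a (201 against 93.01 to 106). Its Lrp2, a proximal tubule marker, was at 7.2 FPKM against at most 1.08 in the other db/+ libraries. Atp6v0d2, a proton pump subunit used as a marker of the collecting duct, was at 9.88. The other db/+ libraries had at most 5.56 of it, and db/+ PIO libraries up to 11.9, also in replicate 2. Replicate 2 was likewise the highest db/db library for Atp6v0d2 (29.1) and Uqcrfs1 (104). It was not the highest for Cox8a in db/db (451 against up to 478) or Uqcrfs1 in db/+ PIO (54.3 against up to 61.1). In db/db PIO its Atp6v0d2 was 2.17, against up to 5.44. The labels do not say what a shared replicate number stands for. Umod, Slc12a1 and Slc12a3 were at 0 in all db/+ libraries, and the part of tubular RNA in these values was not tested. Without replicate 2 of db/+, 7 of 10 members were called instead of 4 of 11, Cox7a1 had a log2 fold change of 2.10 (adjusted p = 0.00378), Uqcrfs1 of 0.71 (adjusted p = 5.84e-05), and Cox8a of 0.53 (adjusted p = 0.00242, against 0.121 with it). For pioglitazone in db/db, which does not use this library, adjusted p fell too, to 0.00584 for Cox7a1 and 0.000251 for Uqcrfs1 (limma). The share of all genes called without this library is not given, so the higher count is not read as a result about the members. With it, leaving out a single other library ended the Uqcrfs1 call for replicates 1, 3, 4, 5 and 6 of db/+ and replicates 1 and 2 of db/db, and the Cox7a1 call for replicates 1, 3, 4 and 6 of db/+ and replicates 1, 3, 4 and 5 of db/db. The count then fell to between 1 and 3 members.

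Pioglitazone in db/db mice went with lower levels of 5 of these genes in glomeruli. Of 8 members tested, Uqcrfs1, Cox7a1, Cycs, Cox8a and Atp5e were lower in db/db PIO than in db/db, and none was higher, against 23.1% of all genes. The median log2 fold change of the 8 was −0.43, against −0.04 for all genes. This comparison uses the same db/db libraries as the diabetes comparison.

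Uqcrfs1 had 66.2, 78.3 and 104 FPKM at the lowest, median and highest of 6 db/db libraries and 46.9, 51.5 and 61.7 in db/db PIO. No treated library reached the lowest untreated one, and the log2 fold change was −0.61 ± 0.17 (adjusted p = 0.0138). Cox7a1 had 31.2, 31.9, 30.7 and 41.4 in db/db and 13.8, 14.3, 6.21, 5.93 and 2.47 in db/db PIO, again apart, with −2.06 ± 0.59 (adjusted p = 0.0178). Both kept their calls without each single library in turn.

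Cycs ranged from 31.7 to 49.6 FPKM in db/db, with a median of 38.2, and had 29.9, 27.2, 27.9, 24.6 and 27.2 in db/db PIO (log2 fold change −0.53 ± 0.17, adjusted p = 0.0339). Cox8a had 451, 459, 403, 478 and 379 in db/db, against 269.89 to 361 in db/db PIO, and fell by 0.43 ± 0.14 on the log2 scale (adjusted p = 0.0286). In both genes the groups did not overlap. Atp5e (mm9 chr2:174286573-174289606, minus strand) had 703, 701, 836, 654 and 548 FPKM in db/db and 621, 504, 490.26, 531 and 399 in db/db PIO, where the groups overlapped (−0.44 ± 0.13, adjusted p = 0.0178). These 3 calls rested on few libraries: Cycs lost its call without replicates 1, 2 or 3 of db/db or 3, 5 or 6 of db/db PIO, Cox8a without 2, 3 or 5 of db/db or 6 of db/db PIO, and Atp5e without 3 of db/db or 6 of db/db PIO. The count was 2 without replicate 3 of db/db or replicate 6 of db/db PIO and 3 without replicate 2 of db/db. Uqcrb, at −0.08 ± 0.11 (adjusted p = 0.646), did not pass.

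**Figure D4:**
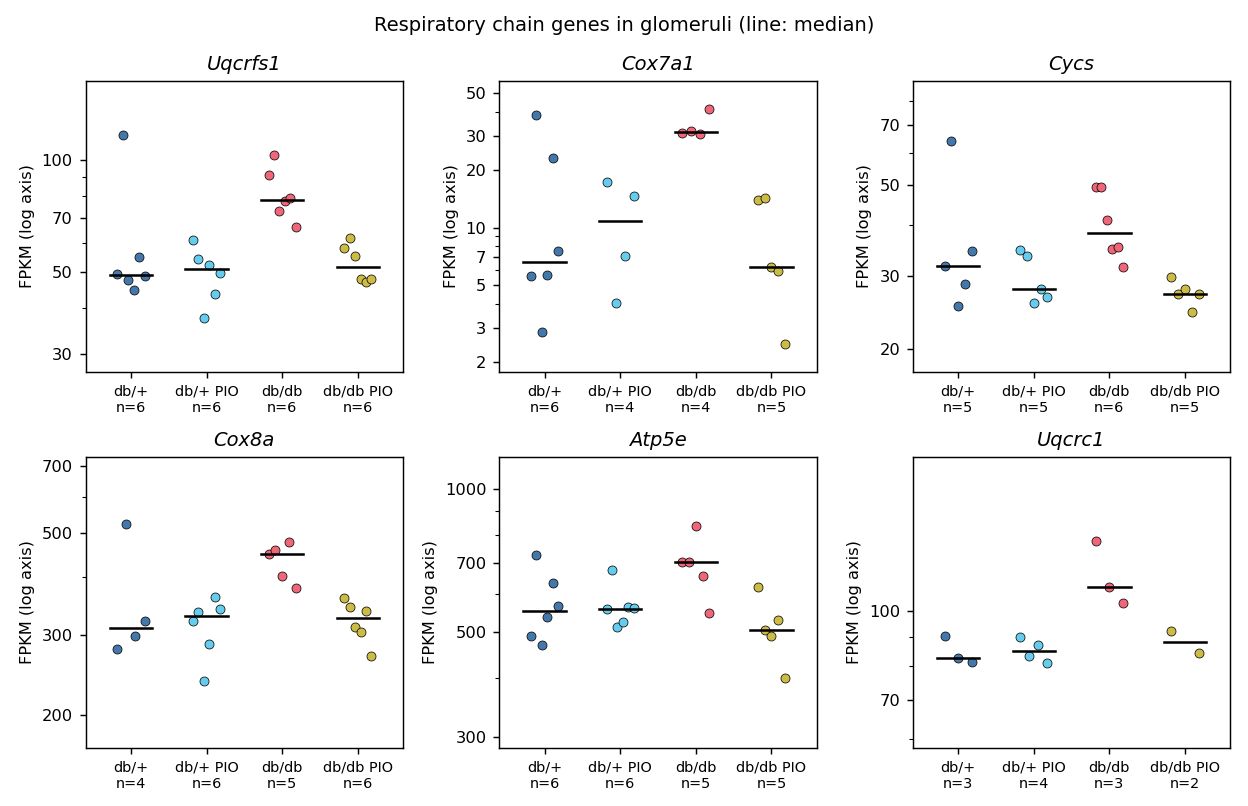
FPKM of 6 members in glomeruli on log axes, 1 point per library with a value and a line at the median, in the 4 groups (n counts libraries with a value). The db/db points of Uqcrfs1, Cox7a1, Cycs and Cox8a lie above all db/db PIO points, and 1 db/+ library, replicate 2, stands high in Uqcrfs1, Cox7a1, Cycs and Cox8a.

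Atp6v0d2 and some macrophage and fat markers changed alongside in glomeruli, while none of 2 proximal tubule markers tested passed in either comparison. C1qb passed with diabetes (1.24, 1 of 3 macrophage markers tested), and C1qa and C1qb with pioglitazone in db/db (−3.08 and −3.15, 2 of 3). Atp6v0d2 was at 0.39 to 9.88 FPKM in db/+, 16.54 to 29.1 in db/db, against 0.21 to 5.44 in db/db PIO, with log2 fold changes of 2.73 (adjusted p = 0.00202) and −2.87 (adjusted p = 0.00165), and it is also a gene of macrophages and osteoclasts. The list of 7 thick limb, distal tubule and collecting duct markers summed to 4.22 to 90.6 in db/+, 16.54 to 67.3 in db/db, against 8.9 to 42.9 in db/db PIO, with Umod, Slc12a1, Slc12a3, Aqp2 and Kcnj1 at 0 throughout db/db. The list of 7 proximal tubule markers summed to 4.16 to 46.4, 3.58 to 40.07 and 3 to 24.4 in the same order. Macrophage markers summed to 32.8 to 158 in db/+, 39.98 to 219.64 in db/db, against 6.26 to 47.3 in db/db PIO, and podocyte markers to 3701.93 to 5513.9, 0 to 4433.24 and 2475.68 to 4804.07. A db/db library had values for 0 to 3 of the 5 podocyte markers, so that the sum of 0 stands for missing entries. Their part in the respiratory genes was not tested.

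Neither of the other glomerular comparisons gave a call. Between db/+ PIO and db/db PIO, none of 9 members passed and none had an unadjusted p under 0.05, with 8.41% of all genes called (limma). Between db/+ and db/+ PIO, none of 11 passed and none had an unadjusted p under 0.05, with 0% of all genes called. Uqcrfs1 had a log2 fold change of 0.10 ± 0.17 in the first and −0.20 ± 0.17 in the second.

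Pioglitazone in db/db mice went with changes of opposite sign in SCN and glomeruli for Cycs and Uqcrfs1, and the difference between the tissues was tested in 1 fit of both. Of 6 members that could be tested for the difference of pioglitazone in db/db, 4 passed, against 21.1% of all genes. The glomerular minus the SCN log2 fold change was −1.83 ± 0.30 for Cycs (adjusted p = 5.2e-05), −1.40 ± 0.25 for Uqcrfs1 (adjusted p = 9.94e-05), −0.75 ± 0.21 for Uqcrb (adjusted p = 0.0103) and −0.70 ± 0.19 for Cox8a (adjusted p = 0.00817). Cycs and Uqcrfs1 were past the threshold in each tissue with opposite signs, while Uqcrb passed only in SCN and Cox8a only in glomeruli. Without replicate 3 of SCN db/db PIO the count was 3. Atp5e and Cox4i2 did not pass (adjusted p = 0.0648 and 0.651). Of 8 members tested for the difference of diabetes, Cox7a1 passed, with 2.26 ± 0.77 (adjusted p = 0.0456), against 15.8% of all genes, and 2.64 without replicate 2 of glomerular db/+ (adjusted p = 0.00807). Cox8b could not be tested in glomeruli, where it was listed at 0 in 19 of 24 libraries.

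**Figure D5:**
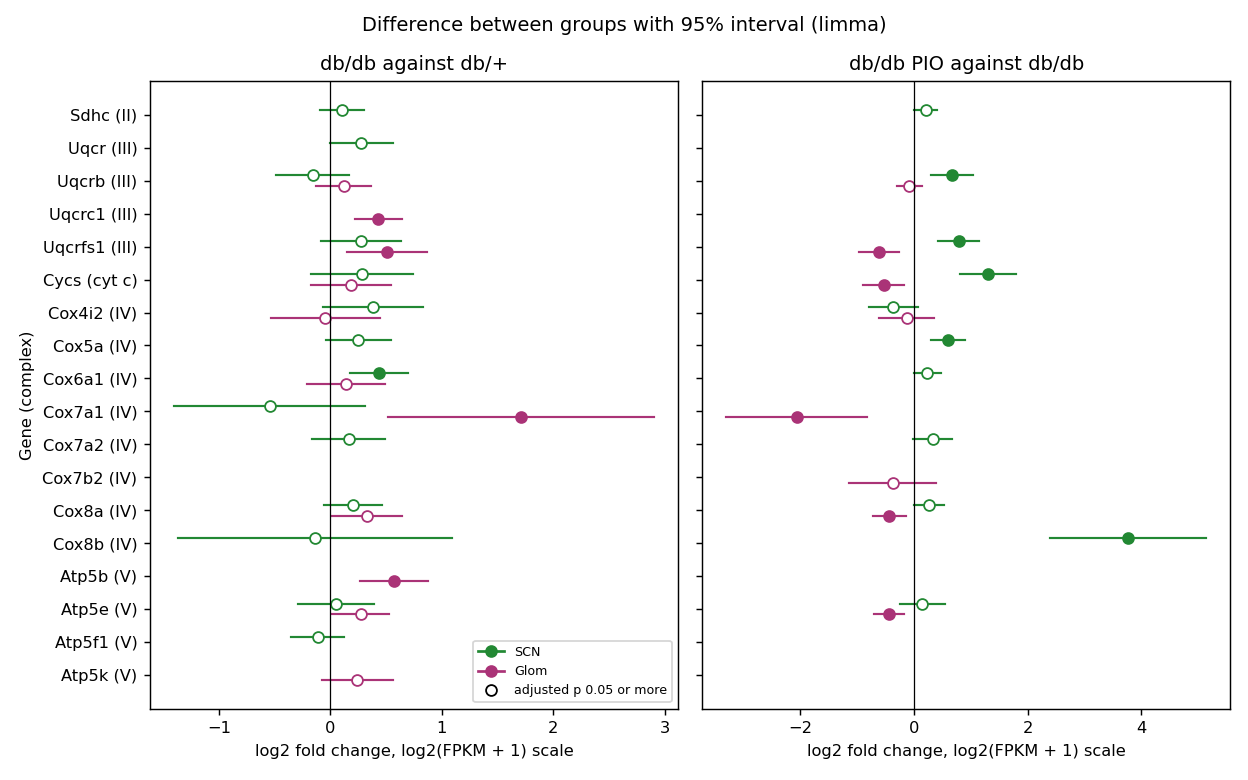
Log2 fold change (log2(FPKM + 1) scale) with its 95% interval for each member tested in SCN (green) or glomeruli (purple), for db/db against db/+ and for db/db PIO against db/db. Filled points have an adjusted p under 0.05. In the second panel the filled SCN points lie right of 0, up to 3.77 for Cox8b, and the filled glomerular points left of it, down to −2.06 for Cox7a1.

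DRG gave 1 call in 4 comparisons. Between db/+ PIO and db/db PIO, Cox7a1 was the only one of 9 members to pass, with 8.64% of all genes called. It had 33.4, 18.95, 20.2, 19.02 and 18.6 FPKM in db/+ PIO, and 11.4, 14.1 and 16.8 at the lowest, median and highest of 6 db/db PIO libraries. The groups did not overlap, and Cox7a1 fell by 0.61 ± 0.14 on the log2 scale (adjusted p = 0.0133), or by 0.45 without the highest library, replicate 1 of db/+ PIO (adjusted p = 0.0112). In the same comparison the adipocyte markers Adipoq, Fabp4 and Lipe were higher, by 1.46, 2.59 and 0.40 on the log2 scale (3 of 3 tested). The list of 7 summed to 6.46 to 84.6 FPKM in db/+ PIO and 28.6 to 184 in db/db PIO, with none at 0 throughout, and its part in the Cox7a1 values was not tested. The 4 db/+ libraries without the drug had 12.6 to 16.4 FPKM, close to db/db PIO.

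None of 4 members passed between db/+ and db/db in DRG, with 4.13% of all genes called and 1 member, Uqcrfs1, at an unadjusted p under 0.05 (limma, log2 fold change 0.22 ± 0.09, adjusted p = 0.18). None of 7 passed for pioglitazone in db/db and none had an unadjusted p under 0.05, with 0% of all genes called. None of 6 passed for pioglitazone in db/+, where 2 had an unadjusted p under 0.05 and 0% of all genes were called. Cox8b in DRG had 0.67, 1.01, 1.04, 1.11 and 1.77 FPKM in db/+, and 1.59, 5.61 and 8.27 at the lowest, median and highest of 6 db/db PIO libraries. It had 0.84 and 18.2 in db/db, and 0.83, 1.51 and 14.1 at the lowest, median and highest of 6 db/+ PIO libraries. The highest value of each of these 2 groups was above every db/db PIO value. With 2 values in db/db, its response to the drug there was not tested, and between db/+ PIO and db/db PIO its log2 fold change was 0.67 ± 0.54 (adjusted p = 0.479).

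In kidney cortex no member passed in any comparison. Of 5 members tested for diabetes, none had an unadjusted p under 0.05, with 10.3% of all genes called (limma). Of 4 tested for pioglitazone in db/db, 2 had an unadjusted p under 0.05, with 3.24% called. They were Uqcrfs1, at −0.28 ± 0.11 (adjusted p = 0.162), and Cox4i2, at −0.41 ± 0.19 (adjusted p = 0.213). For diabetes under pioglitazone, with 19.7% of all genes called, and for pioglitazone in db/+, with 0.025% called, none of 5 members passed and none had an unadjusted p under 0.05.

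Atp5b was the member best measured in cortex, and its 95% interval for diabetes was −0.21 to 0.23 on the log2 scale, around 0.01 ± 0.11. It had 2196.86, 2412.85 and 2567.53 FPKM at the lowest, median and highest of 6 db/+ libraries, and 1883.2, 2486.07 and 2738.29 in db/db, with wide overlap. Replicate 6 of cortex db/db held 2303.04 FPKM of Cox8a against 654 to 727 in the other db/db libraries, and 2683.59 of Cox6a1 against 1338.42 to 1470.48. Without it, Cox8a had a log2 fold change of 0.21 with diabetes instead of 0.64, and Cox6a1 of 0.06 instead of 0.25, none of them past the threshold.

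Genes that assemble, regulate or serve the complexes were followed from 3 lists, to be read against the shares of all genes called, 14.9% and 10.1% in SCN and 25.4% and 23.1% in glomeruli for diabetes and for pioglitazone in db/db. Of 22 assembly factors listed in the files, 9 were tested for pioglitazone in db/db in SCN. Cox10 and Cox15, which make the heme A of complex IV, rose by 0.34 and 0.37 on the log2 scale (adjusted p = 0.0085 and 0.0115), and Tmem70, a factor of ATP synthase assembly, rose by 0.45 (adjusted p = 0.0417). In glomeruli 9 were tested and Tmem70 alone passed, at −0.29 (adjusted p = 0.0366). For diabetes, none of 8 passed in SCN and 1 of 8 in glomeruli, Sdhaf1 of complex II assembly, at 0.30 (adjusted p = 0.0243).

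Of the carriers and channels, Slc25a5 and Slc25a4, the ADP/ATP exchangers of the inner membrane, were the 2 tested in glomeruli. Slc25a5 had log2 fold changes of 0.82 with diabetes (adjusted p = 0.000176) and −0.76 with pioglitazone in db/db (adjusted p = 8.3e-05), and Slc25a4 of 0.52 (adjusted p = 0.000111) and −0.21 (adjusted p = 0.049). In SCN, Slc25a5 was the 1 of 4 to pass for pioglitazone in db/db, at 0.95 (adjusted p = 0.00397), and none of 5 passed for diabetes. Among the biogenesis regulators, Ppargc1b, a coactivator of respiratory genes, passed in SCN for diabetes (0.35, adjusted p = 0.0228, 1 of 5 tested) and for pioglitazone in db/db (0.35, adjusted p = 0.027, 1 of 3 tested). Tfam, the mitochondrial DNA packaging factor, had 0.16 for the drug in SCN (adjusted p = 0.127) and 0.02 in glomeruli (adjusted p = 0.848), and none of 4 regulators passed in glomeruli in either comparison.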

How the data were processed

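RNA-Seq libraries of 4 tissues, 95 in all, were analysed. The authors aligned reads to mm9 and calculated FPKM with Cufflinks, and the deposited FPKM values, 1 per gene symbol and library, were used without further scaling. Cufflinks and mm9 are also named in the processing notes of the submitters. The sources used here do not state program versions. The authors' test, Cuffdiff, works on aligned reads and was not repeated. Depth per library is unknown from FPKM alone, so only the spread between replicates and the number with a value show the precision. A 0 was taken as missing, since it was listed for genes used by every cell.

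Groups were compared in R 4.3.3 by limma 3.58.1. It was run on log2 values computed here from the deposited FPKM with a pseudocount of 1, in 1 fit per tissue over 4 groups with an intensity trend. A gene entered with 5 or more libraries of the tissue at an FPKM of 1 or above, and was tested with 3 or more values on each side. P-values were adjusted by Benjamini-Hochberg over all genes tested, with a threshold of 0.05. SCN and glomeruli were set against each other by an interaction term in 1 joint model. The scripts were tested on simulated data. Alternatives were the handling of 0, pseudocount, filter, rescaling, groups fitted, a minimum of 5 values, the trend, a replicate block and leaving out each library (for the difference between tissues, 2 libraries only). Named were the 3 muscle-type isoforms with their partners, and members past the threshold (up to 12 per tissue for diabetes and pioglitazone in db/db, up to 5 for the other comparisons). Not every same-numbered pair of libraries correlated, and the labels do not say what the numbers stand for. Replicate numbers were therefore not taken as pairing in the main fit, and the replicate block was kept as an alternative. Members and lists were chosen with earlier results of these data known. Gene coordinates are those of mm9 (48 of 49 symbols matched), and promoter sequences come from RefSeq on GRCm38.p6. No 2 libraries held identical values. 1 list of marker genes is not reported here.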

Additional observations from a re-analysis of the deposited data

Results flagged for a closer look

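Of 107 groups of 4 to 6 libraries checked over 14 named members, 17 held a library far from the others. The cut-off gives about 1 in 20 for independent values with a normal spread. FPKM need not be normal, several flags share a library, and members were named partly by their calls. No excess is therefore read from the count. In glomeruli, replicate 2 of db/+ had 201 FPKM of Cox5a (others 93.01 to 106), 524 of Cox8a (others 279.82 to 321), 64 of Cycs (others 25.4 to 34.7) and 117 of Uqcrfs1 (others 44.6 to 55). Replicate 2 of glomerular db/+ PIO had 675 FPKM of Atp5e (others 511 to 564), and replicate 5 of db/db had 41.4 of Cox7a1 (others 30.7 to 31.9). In cortex, replicate 6 of db/db had 2683.59 FPKM of Cox6a1 and 2303.04 of Cox8a, and replicate 4 of db/+ PIO had 0.87 of Cox8b (others 0.22 to 0.29).

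In DRG, replicate 1 of db/+ PIO had 682 FPKM of Atp5e (others 341 to 398) and 33.4 of Cox7a1 (others 18.6 to 20.2). Replicate 2 of the same group had 0.61 of Cox6a2 (others 0.1 to 0.22) and 412 of Uqcrb (others 281 to 293), and replicate 3 had 14.1 of Cox8b (others 0.83 to 3.36). Replicate 3 of DRG db/db, the library with high skeletal actin, had 10.5 FPKM of Cox6a2 (others 0.19 to 0.96) and 389.98 of Uqcrb (others 286 to 289). In SCN, replicate 4 of db/+ PIO had 1.68 of Cox6a2 (others 0.11 to 0.52).

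By the test of the difference itself, the effect of diabetes on Cox7a1 was larger in glomeruli than in SCN by 2.26 on the log2 scale. For pioglitazone in db/db the glomerular minus SCN differences were −0.70 for Cox8a, −1.83 for Cycs, −0.75 for Uqcrb and −1.40 for Uqcrfs1.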

How the results depend on the processing

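The counts of members called in SCN, glomeruli and DRG rested on reading 0 as missing. With each 0 entered as a value, 0 members were called in every comparison that had a call, and of 25 called values 16 kept their direction without passing and 9 turned it. Among these and the values not called, the log2 fold changes that turned were, in SCN, −2.34 for Cox7a2 with diabetes, −1.15 for Cox8a, −0.11 for Cycs and −2.14 for Uqcrb with pioglitazone in db/db, −0.67 for Cox8b, −0.22 for Cycs and −1.20 for Sdhd between the PIO groups, and −0.65 for Cox7a1 and −1.23 for Cox8a with pioglitazone in db/+. In DRG they were −1.78 for Cox8a with diabetes, 3.28 for Cox8a with pioglitazone in db/db, and 0.14 for Cox7a1 and 1.17 for Cox8a between the PIO groups. In glomeruli they were −1.19 for Atp5b with diabetes, 1.03 for Cox8a with pioglitazone in db/db, 0.30 for Cox7a1 between the PIO groups and 2.67 for Cox8a with pioglitazone in db/+, and in cortex −1.64 for Cox6a1 between the PIO groups and 0.93 for Cox7a1 with pioglitazone in db/+. The glomerular minus SCN differences became 2.18 for Cox8a and 3.54 for Uqcrb.

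The single SCN call for diabetes was lost (0 members) with no filter, median-of-ratios rescaling, a minimum of 5 values in both groups or the 2 groups alone. With quantile normalization Cox6a1 also lost it (0.16, adjusted p = 0.545), while 7 other members passed, with 2301 of all 4233 genes called. Pioglitazone in db/+ gave 1 SCN member with median-of-ratios, quantile or a minimum of 5 values. That minimum left 1 member each for pioglitazone in db/db and between the PIO groups in SCN and for diabetes in glomeruli, with fewer members tested. The DRG call was lost (0) with quantile normalization and with the 2 groups alone, which gave 1 DRG member for diabetes. In glomeruli, 3 members passed for pioglitazone in db/db with median-of-ratios or quantile (1244 and 579 of all 4158 genes called). For diabetes 2 passed with the 2 groups alone (856 of all 4210 genes). The difference of diabetes gave 0 at a pseudocount of 0.1 and 2 with quantile, where 1361 of all 2692 genes were called. Quantile normalization turned the log2 fold changes of Cox8b with diabetes in SCN (0.35), Cox6a1 between the PIO groups in DRG (0.23) and, in cortex, Cox8a (−0.015) and Cox6a1 (−0.13) with diabetes, Cox6a1 between the PIO groups (−0.24) and Cox7a1 with pioglitazone in db/+ (0.0074). The cause was not tested.

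Same-numbered libraries did not deviate together throughout any tissue, though in glomeruli 20 of 36 pairs had a correlation over 0.1 (median correlations 0.12 in glomeruli, 0.0601 in DRG, −0.000687 in SCN and −0.00715 in cortex). Pairs with different numbers had median correlations of −0.0137 in glomeruli, 0.00607 in DRG, 0.0102 in SCN and 0.0105 in cortex. With a replicate block, 0 members passed for diabetes in SCN and for the difference of diabetes, 22 of 25 called values kept their calls, and the 3 that lost them were Atp5b with diabetes in glomeruli (0.50, adjusted p = 0.127), Cox6a1 with diabetes in SCN (0.34) and the Cox7a1 difference of diabetes (2.17). Cox8b between the PIO groups in SCN (−0.015) and Cox7a1 between them in glomeruli (0.25) turned.

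Leaving out single libraries gave 0 to 1 members for diabetes, 3 to 5 for pioglitazone in db/db, 2 to 5 between the PIO groups and 0 to 1 for pioglitazone in db/+ in SCN, 1 between the PIO groups in DRG, 1 to 7 for diabetes and 2 to 5 for pioglitazone in db/db in glomeruli, and 0 in the other comparisons of 1 tissue. For the differences between tissues only 2 libraries were left out (replicate 2 of glomerular db/+ and replicate 3 of SCN db/db PIO), with 1 member for diabetes and 3 to 4 for pioglitazone. Shares of all genes called in these fits are not given, so the counts are not read as results about the members. Of 467 called values, 436 kept their call, 31 lost it and 0 turned. These include fits in which the library left out held no value of the gene in the groups compared. Values not called that turned were Cox8b with diabetes in SCN without replicates 2, 3 and 4 of db/+ (0.071, 0.035 and 0.048, with a range over all libraries of −0.35 to 0.071), Cox7a1 with pioglitazone in db/+ in glomeruli without replicates 2 and 5 of db/+ (0.36 and 0.21) and 3 and 4 of db/+ PIO (0.32 and 0.092, range −0.32 to 0.36), Cox8a there without replicate 2 of db/+ (0.057, range −0.24 to 0.057), and Cox8a between the PIO groups there without replicate 3 of db/+ PIO (−0.037, range −0.037 to 0.089). With 28 of 49 members never tested, no statement covers the complexes as wholes, and depth could not be weighed from FPKM.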
